A study of Mus musculus with 6 samples.

Results

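The 10 genes described here encode peptide hormones of the pancreatic islet and the gut. They were chosen by name, as every array probe whose RefSeq accession maps to Ins1, Ins2, Iapp, Gcg, Sst, Ppy, Pyy, Ghrl, Cck or Grp. Each of the 10 had 1 probe, out of 39429 probes in all. The names were picked with results of the exoNOD against control comparison in view, so the differences below describe these arrays, and the p-values of the fit over all genes are not independent support for a change in this group. Among the values known at the choice were the large difference of Cck and the high signals of the insulin, glucagon and amyloid genes.

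Islet endocrine cells make hormones as larger precursor proteins that are cut in secretory granules. Beta cells release insulin together with amylin, alpha cells glucagon, delta cells somatostatin and PP cells pancreatic polypeptide, while peptide YY, ghrelin, cholecystokinin and gastrin-releasing peptide are best known from gut endocrine cells and nerves and can also occur in small amounts in the pancreas. Mice carry a pair of insulin genes, Ins1 and Ins2, whose products are nearly the same, and a probe for one may also report transcript of the other.

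Islets of male C57Bl/6N mice were dispersed to cells, and the cells were cultured for 72 h. The 3 control cultures received no exosomes. The 3 exoNOD cultures received 50 µg/ml of exosomes, which are small vesicles shed by cells, purified from medium of CD4+CD25- T lymphocytes. The lymphocytes came from NOD mice, which develop autoimmune diabetes. Each of the 3 experiments used separate islet and exosome preparations. There was no arm with exosomes of another source, so a response to NOD exosomes and one to exosomes in general cannot be told apart.

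Total RNA was labelled with Cy3 and measured on 1-colour Agilent arrays of 43020 transcript spots. All levels below are log2 signals after subtraction of the array's own 75th percentile, which lay between 812 and 890 signal units. A difference is always the exoNOD mean minus the control mean over 3 arrays each, and the number of arrays limits the precision. Levels of different genes come from different probes and are not set against each other. ExoNOD replicate 1 had the same scan time as the 3 control arrays, and the other exoNOD arrays shared a scan time with no control. Arrays of equal scan time are called a slide below. This is inferred from the scan times, and the labels do not state it. On the first principal component exoNOD replicate 1 lay at −1.68 and control replicate 3 at −7.07, while the other exoNOD arrays lay at 37.8 and 44.9 and the other controls at −39.7 and −34.3. A value for exoNOD replicate 1 against the controls of its own slide is therefore given beside the main results.

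The start regions of 5 members are shown because these genes carry the results that follow. Cck had the greatest difference of the members above background everywhere, Ppy and Pyy are neighbouring genes with alike differences, and Ins1 and Sst stand for the abundant islet hormones. The sequences are those of RefSeq on GRCm38.p6, 250 bases before to 50 after the start site, and 8 of the 10 members had an entry. Those of Ins2 and Grp are not shown. Capitals mark TATAAA, the TATA box, TGACG, the core of the cyclic AMP response element (its full form being TGACGTCA), CANNTG, the E-box, and GCCATCTG, the insulin gene form of the E-box, which contains a CANNTG match. Both strands were searched.
Cck: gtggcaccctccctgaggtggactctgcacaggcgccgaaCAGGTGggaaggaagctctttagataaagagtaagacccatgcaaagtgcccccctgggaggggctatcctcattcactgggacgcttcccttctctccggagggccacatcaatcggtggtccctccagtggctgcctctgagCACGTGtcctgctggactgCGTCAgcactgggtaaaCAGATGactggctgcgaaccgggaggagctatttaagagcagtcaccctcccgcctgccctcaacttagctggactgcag
Sst: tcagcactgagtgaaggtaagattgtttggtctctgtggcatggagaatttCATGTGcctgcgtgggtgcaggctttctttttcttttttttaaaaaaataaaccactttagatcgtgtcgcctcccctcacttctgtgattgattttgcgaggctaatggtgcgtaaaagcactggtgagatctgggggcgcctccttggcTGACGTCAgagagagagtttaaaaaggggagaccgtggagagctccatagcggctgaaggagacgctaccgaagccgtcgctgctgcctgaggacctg
Ppy: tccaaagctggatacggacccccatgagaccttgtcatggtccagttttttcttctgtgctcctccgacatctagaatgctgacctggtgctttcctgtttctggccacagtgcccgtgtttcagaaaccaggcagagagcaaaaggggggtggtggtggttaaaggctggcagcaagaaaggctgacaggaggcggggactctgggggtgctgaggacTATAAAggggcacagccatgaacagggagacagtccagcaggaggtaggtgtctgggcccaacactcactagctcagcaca
Pyy: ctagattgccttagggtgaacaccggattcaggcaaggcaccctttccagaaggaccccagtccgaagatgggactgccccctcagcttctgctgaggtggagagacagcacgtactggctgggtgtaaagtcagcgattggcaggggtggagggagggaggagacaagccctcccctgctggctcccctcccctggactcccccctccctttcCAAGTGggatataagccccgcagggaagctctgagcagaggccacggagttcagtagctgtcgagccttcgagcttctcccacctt
Ins1: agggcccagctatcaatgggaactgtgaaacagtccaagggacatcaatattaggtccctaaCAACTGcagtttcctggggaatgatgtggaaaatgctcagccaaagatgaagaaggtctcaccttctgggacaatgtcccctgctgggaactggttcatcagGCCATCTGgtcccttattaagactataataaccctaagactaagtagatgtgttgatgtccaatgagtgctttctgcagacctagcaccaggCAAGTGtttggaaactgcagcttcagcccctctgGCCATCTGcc

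These windows lie at chr9:121495645-121495944 (minus strand) for Cck, chr16:23890795-23891094 (minus) for Sst, chr11:102101270-102101569 (minus) for Ppy, chr11:102107783-102108082 (minus) for Pyy and chr19:52264047-52264346 (plus) for Ins1. Among 32851 windows of this length in the table, 20.8% held TGACG, 1.79% TGACGTCA, 13.6% TATAAA, 72.3% CANNTG and 1.32% GCCATCTG. Sst held the full response element 48 bases upstream of its start. Cck held the core, TGACG, read on the other strand, 47 bases upstream. Ppy held TATAAA 31 bases upstream, and Pyy had 1 CANNTG match, 36 bases upstream. Ins1 held GCCATCTG 86 bases upstream and again at position 41 after the start. A match describes the letters only and says nothing of binding in these cells.

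The cells carried the transcripts that define islet endocrine cells. The probes of 9 of the 10 members were well above background on all 6 arrays, and that of Grp on the 3 exoNOD arrays and on 0 control arrays. The insulin, amyloid and glucagon probes were among the brightest on the arrays. The pixel signal of Ins2 reached between 41.7% and 45.1% of the value at which the scanner saturates, that of Gcg between 43.9% and 48.0%, that of Ins1 between 38.9% and 41.97% and that of Iapp between 31.5% and 34.2%. Against the brightest processed signal of the array, Ins2 reached 86.1% to 96.7%, Gcg 83.1% to 91.3%, Ins1 69.3% to 77.4% and Iapp 64.9% to 74.2%. These probes thus lay near the top of the signals measured. No spot of any array was marked saturated (0 of 43020 on each). Whether the probes themselves were filled at such levels was not tested. Over the 11 genes with a mean level of 8 or above, of which these members are 4, the differences ran from −0.18 to 0.10. Their median SD within the groups was 0.059, against 0.12 over genes with a level from 6 to 8.

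In the comparison of exoNOD with control cells, which asks how T lymphocyte exosomes alter islet cell gene expression, the main islet hormones differed little while Cck and Grp had more signal in exoNOD cells. The 6 classical islet hormone genes had differences between −0.35, for Ppy, and −0.01. Pyy lay at −0.40 and Ghrl at −0.06, against 1.54 for Cck. Grp, not above background in control cells, has only a bound, given below. In limma with Benjamini-Hochberg adjustment over 25788 genes, 0 of the 10 members passed an adjusted p of 0.05, where 0.105% of all genes passed (26 genes higher, 0.101%, and 1 lower, 0.00388%). At an unadjusted p under 0.05 there were 4 members, Cck, Grp, Pyy and Ppy, among 4280 genes. With the replicate number as a block 3 members passed, where 8.35% of all genes did. They were Cck and Grp upward, where 6.62% of all genes passed upward, and Pyy downward, where 1.73% passed. Grp entered the fit through the exoNOD arrays alone, so its passing is no support for a change. Of the 10 members 8 had a negative difference. Their median was −0.08, against 0.035 over all genes tested. The groups did not overlap for 5 members, 2 higher and 3 lower in exoNOD cells, and for 22.4% of all genes (14.6% higher and 7.79% lower). Nothing is read from these counts, since the members were chosen with this comparison known.

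**Figure D1:**
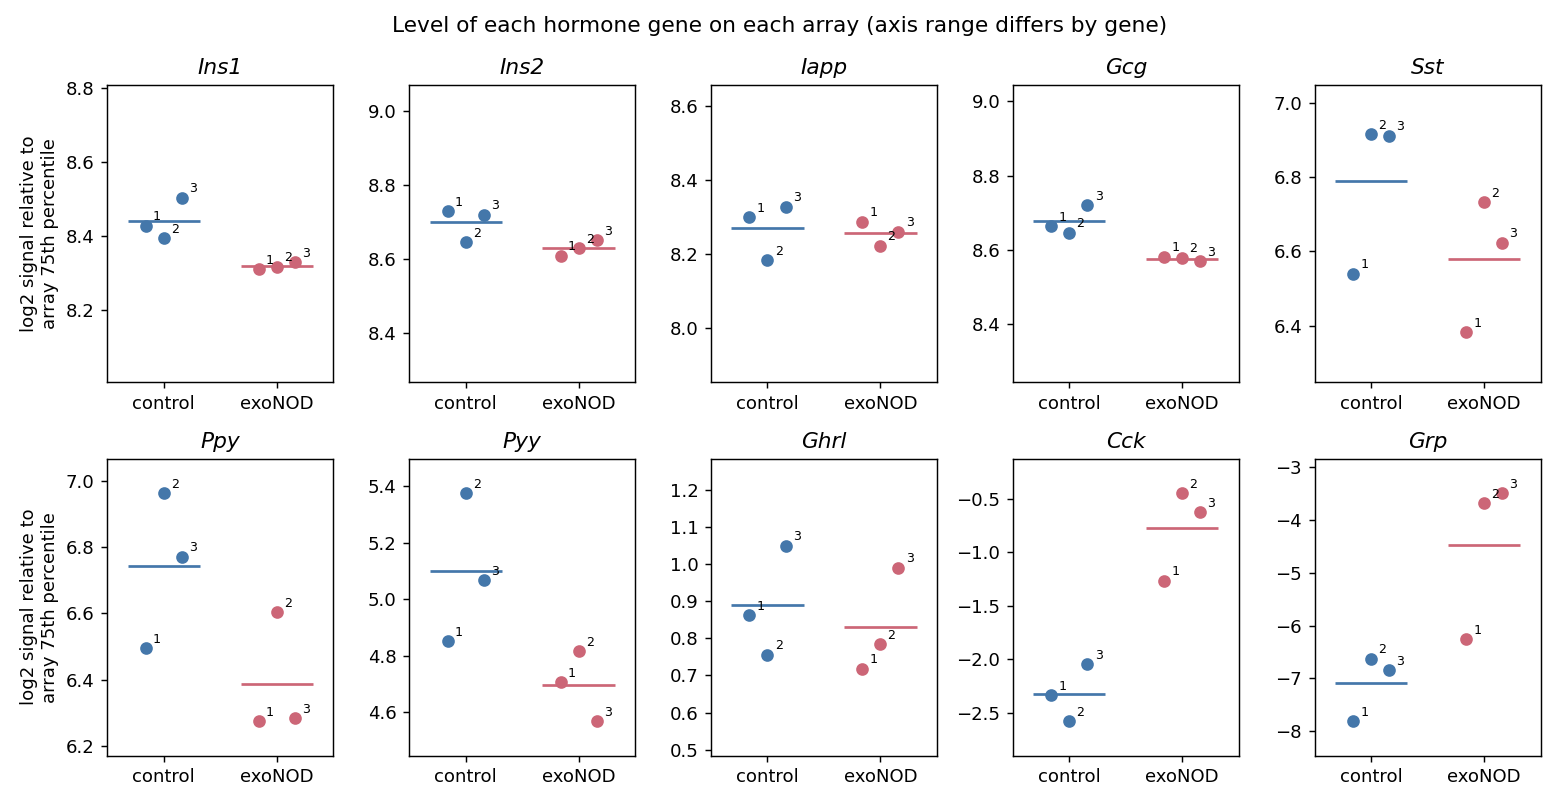
Log2 signal of each hormone gene relative to the 75th percentile of its array, for 3 control arrays (blue) and 3 exoNOD arrays (red); digits are replicate numbers, bars are group means, and the axis range differs between genes. Cck and Grp are higher on all 3 exoNOD arrays than on any control, Pyy, Ins1 and Gcg are lower on all 3, and the other genes overlap.

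Ins1 encodes insulin 1. Its level was 8.43, 8.39 and 8.50 on the control arrays (replicates 1, 2 and 3) and 8.31, 8.32 and 8.33 on the exoNOD arrays. All exoNOD values lay below all control values, by a small step. The difference was −0.12 ± 0.09 (SE, limma adjusted p = 0.496), and its 95% interval ran from −0.33 to 0.08, or 0.798-fold to 1.06-fold. Leaving out single arrays gave differences between −0.15 and −0.09.

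Ins2 encodes insulin 2. It had levels of 8.73, 8.65 and 8.72 in control and 8.61, 8.63 and 8.65 in exoNOD cells. The lowest control and the highest exoNOD array met, so the groups overlapped. Its difference was −0.07 ± 0.09 (adjusted p = 0.711 in limma, 95% interval −0.27 to 0.13). After quantile normalization it was 0.025.

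Iapp encodes amylin, the islet amyloid peptide stored with insulin. Controls had 8.30, 8.18 and 8.33 and exoNOD cells 8.29, 8.22 and 8.26. Every exoNOD value fell within the range of the controls. The difference was −0.01 ± 0.09 (limma adjusted p = 0.948), with an interval from −0.22 to 0.20, and exoNOD replicate 1 exceeded the mean control, all on its slide, by 0.017.

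Gcg encodes glucagon and the glucagon-like peptides. The values were 8.66, 8.65 and 8.72 in control cells and 8.58, 8.58 and 8.57 in exoNOD cells. The groups did not overlap, and the exoNOD arrays lay very close together (SD 0.0068, against 0.038 for the controls). The difference was −0.10 ± 0.09 (limma adjusted p = 0.577, 95% interval −0.30 to 0.10). After quantile normalization the difference was 0.025, so its direction depends on the scaling. Against the control mean of its slide exoNOD replicate 1 lay at −0.10 for Gcg, −0.13 for Ins1 and −0.09 for Ins2.

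The Gcg and Sst probes were printed in 10 spots on each array, which shows the error of a single spot. For Gcg the spots of an array had an SD between 0.090 and 0.12. The level of an array is a mean over its spots, so this SD is not the error of the group difference. On control replicate 1 they ran from 8.52 to 8.80, and on exoNOD replicate 1 from 8.47 to 8.72. For Sst the spots had an SD between 0.026 and 0.045, less than the distance of replicate 1 from the other arrays of its group. Control replicates 2 and 3 lay closer together than that. The other members had 1 spot per array, so their spot error was not measured.

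**Figure D2:**
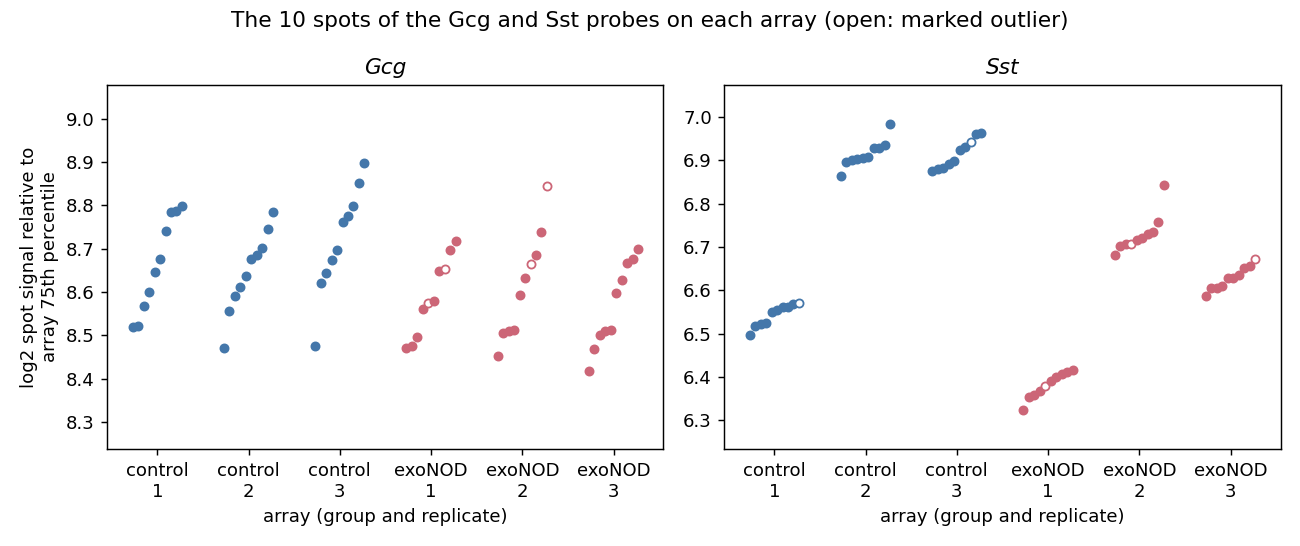
Log2 signal of each of the 10 spots of the Gcg probe (left) and the Sst probe (right) relative to the 75th percentile of the array, by array, sorted within the array; open points are spots marked as outliers, which were left out of the mean. The Gcg spots of all 6 arrays overlap, while the Sst spots of control replicate 1 (6.50 to 6.57) lie below all spots of the other controls.

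Sst encodes somatostatin, which restrains the release of insulin and glucagon. Its levels were 6.54, 6.92 and 6.91 in control cells and 6.38, 6.73 and 6.62 in exoNOD cells. Replicate 1 was the lowest array of both groups, and the groups overlapped. The difference was −0.21 ± 0.14 (limma adjusted p = 0.461, 95% interval −0.53 to 0.11). It was negative in each pair of equal replicate number, at −0.16, −0.18 and −0.29. With the replicate number as a block the adjusted p was 0.231. Leaving out single arrays gave differences from −0.33 without control replicate 1 to −0.11 without exoNOD replicate 1, with −0.15 without control replicate 2 or 3. Against the control mean of its slide exoNOD replicate 1 lay at −0.41.

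Ppy and Pyy belong to the neuropeptide Y family and lie next to each other on chromosome 11, with 0 genes between them in the RefSeq table of GRCm38.p6. Ppy, which encodes pancreatic polypeptide, had levels of 6.50, 6.96 and 6.77 in control and 6.28, 6.60 and 6.28 in exoNOD cells. Replicate 2 was the highest array of each group, and exoNOD replicate 2 lay above control replicate 1. The difference was −0.35 ± 0.14, with 1.28-fold more signal in control cells (limma adjusted p = 0.282, 0.0742 with the replicate block). Within pairs it was −0.22, −0.36 and −0.49. With the block it passed after quantile normalization (−0.39, adjusted p = 0.0276) and in the authors' values (−0.39, 0.0271).

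Pyy encodes peptide YY, a peptide of gut L cells that is also found in islets. Control cells had 4.85, 5.38 and 5.07 and exoNOD cells 4.71, 4.82 and 4.57. Replicate 2 was again the highest of each group, and all 3 exoNOD arrays lay below all controls. The difference was −0.40 ± 0.14, with 1.32-fold more signal in control cells (limma adjusted p = 0.246). With the replicate block it passed at an adjusted p of 0.0466. It did not pass with the block once pair 2 or pair 3 was left out. Pairs 1, 2 and 3 gave −0.14, −0.56 and −0.50. Against the controls of its slide exoNOD replicate 1 lay at −0.39 for Pyy and at −0.47 for Ppy, each from 1 array, while pair 1 gave the smallest of the pair differences of both genes. Without control replicate 2, the highest control for both genes, Pyy had −0.26 and Ppy −0.24. In bulk samples, fewer cells of a type and less RNA per cell cannot be told apart.

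Ghrl encodes ghrelin, the product of the rare epsilon cells. The levels were 0.86, 0.76 and 1.05 in control and 0.72, 0.78 and 0.99 in exoNOD cells. Replicate 3 was the highest array of each group and the groups overlapped. The difference was −0.06 ± 0.12 (limma adjusted p = 0.829, 95% interval −0.33 to 0.22), and pair 2 had a positive value of 0.028. On its own slide exoNOD replicate 1 lay at −0.17 from the control mean.

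Cck encodes cholecystokinin, which in the gut stimulates secretion of pancreatic enzymes. Its processed signal was 168, 148 and 197 units on the control arrays and 362, 650 and 578 units on the exoNOD arrays. As levels these were −2.33, −2.58 and −2.04 in control and −1.26, −0.44 and −0.62 in exoNOD cells. All 3 exoNOD arrays lay above all controls, and exoNOD replicate 1 was the lowest of its group. The difference was 1.54 ± 0.23, or 2.91-fold (95% interval 2.04 to 4.17), with a limma adjusted p of 0.0619. It passed with the replicate block (0.00178). The pairs differed by 1.07, 2.13 and 1.42, and exoNOD replicate 1 exceeded the control mean of its slide by 1.06.

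The side of the threshold on which Cck falls turned on single arrays and settings. The limma adjusted p was 0.00532 without exoNOD replicate 1 and 0.037 without control replicate 3. It lay between 0.162 and 0.241 when any of the other 4 arrays was left out. The difference stayed between 1.38 and 1.79 over these 6 fits. Cck also passed with array weights (0.0353) and with normexp background correction (0.0109). With slide as a block, where exoNOD replicate 1 alone is set against the controls, the adjusted p was 0.823.

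Grp encodes gastrin-releasing peptide, a peptide of gut and pancreatic nerves. Its signal was 3.76, 8.92 and 7.07 units on the control arrays, none of them well above background. The exoNOD arrays had 11.4, 68.8 and 79.5 units, all well above background. On exoNOD replicate 1 the lowest signal that counted as well above background was 8.87 units, so this array lay near that limit and the other exoNOD arrays far above it. As levels the exoNOD arrays had −6.25, −3.68 and −3.49, and the controls −7.81, −6.63 and −6.84 as measured. The mean of the exoNOD arrays was at least 3.77-fold higher. The bound was 1.098-fold for exoNOD replicate 1 alone, 6.52-fold and 7.49-fold for replicates 2 and 3, and 6.99-fold without replicate 1. These bounds are set against, on each control array, the lowest level among probes well above background there. The fit gave a limma adjusted p of 0.166, and 0.00253 with the replicate block. Its difference of 2.62 and these p-values rest on control values that were not above background. The gene passed the filter only through the exoNOD arrays. The difference is therefore no measured size, and the p-values are no support for a change.

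The high Grp arrays are both on the slide that holds no control. The exoNOD SD was 1.54, and exoNOD replicate 1 exceeded the control bound by 0.13, all on its slide. Without exoNOD replicate 1 the limma adjusted p was 0.00588, and without any other single array it lay between 0.189 and 0.457. With the block Grp did not pass once pair 2 was left out (0.0723). All of these p-values rest on the same control values that were not above background. For this gene the slide and the treatment of exoNOD replicates 2 and 3 cannot be told apart.

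**Figure D3:**
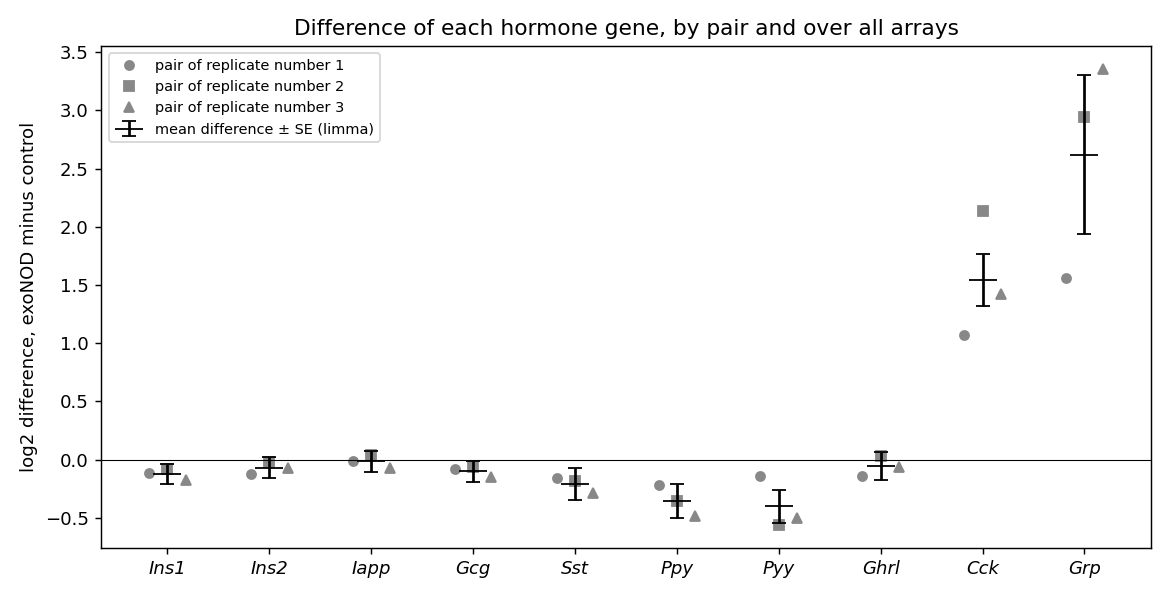
Log2 difference between exoNOD and control for each hormone gene, by pair of equal replicate number (grey symbols) and as the mean over 3 arrays per group with its SE from limma (black). Cck and Grp lie above 0 in every pair (Grp against control values not above background), and 6 genes (Ins1, Ins2, Gcg, Sst, Ppy and Pyy) lie below 0 in every pair by at most 0.56.

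Of all genes tested 22.1% were lower in all 3 pairs, as were these 6 members, and 29% were higher in all 3, as were Cck and Grp. The median absolute difference was 0.092 over the 267 genes with a mean level from 6 to 8, where Sst and Ppy lie, and Ppy had the lowest difference of them. It was 0.089 over the 973 genes from 4 to 6, where Pyy lies. In the range from −4 to 0, where Cck lies, it was 0.18 over 11221 genes, and below −4, where Grp lies, 0.31 over 5810 genes.

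**Figure D4:**
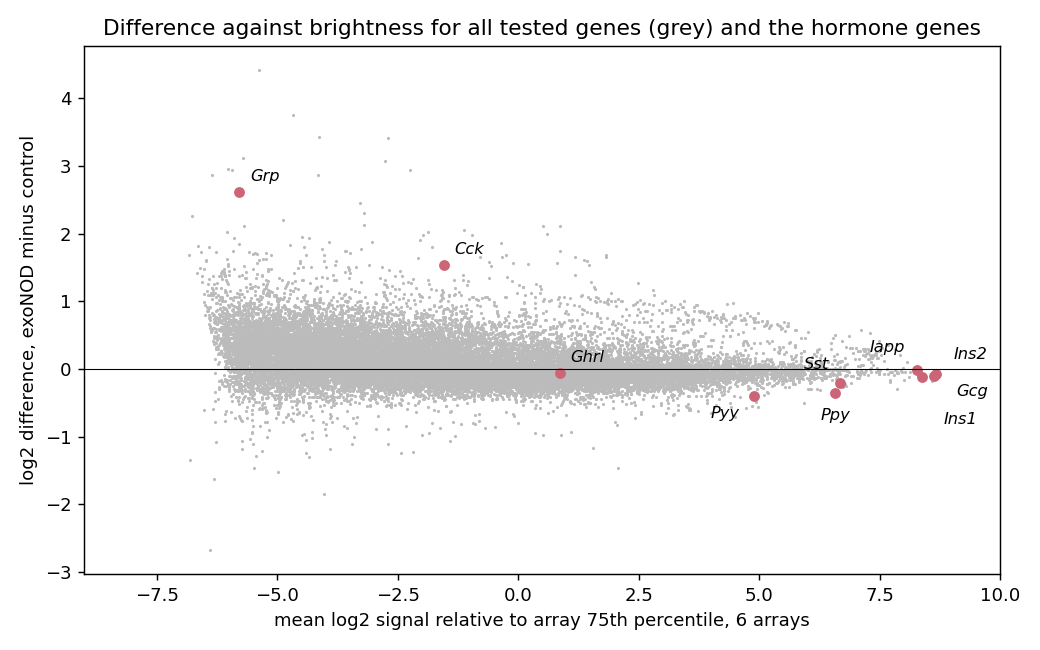
Log2 difference between exoNOD and control against the mean log2 level over 6 arrays for all 25788 genes tested (grey) and the 10 hormone genes (red). Ins1, Ins2, Iapp and Gcg lie near 0, while Cck (1.54) and Grp lie above most genes of like brightness. The Grp point uses control values that were not above background.

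For the members above background on all arrays whose groups did not overlap, the genes with the most alike levels over the 6 arrays were sought among established symbols, with Pearson's r as a plain measure of likeness. For Ins1 these were Mical3 (r = 0.988), Gcg (0.986) and Erbin (0.97), and for Gcg they were Erbin (0.997), Mical3 (0.990) and Ins1 (0.986). The insulin 1 and glucagon genes were thus among each other's closest 3, though 28 genes had an r over 0.95 with Ins1 and 35 with Gcg. Both lay near the top of the signals measured. The part of the shared scaling of each array in this likeness was not tested. Pyy was most like Fn3k (0.995), Zrsr1 (0.991) and Myg1 (0.987), and 93 genes had an r over 0.95 with it. Among the genes most like Cck were Csta2 (0.998) and Skint3 (0.997), and 366 genes had an r over 0.95 with it. Only 6 arrays enter each value, and they share the group difference.

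Prohormone processing and granin genes make the granule in which these hormones are cut and stored. None of the 12 genes was called by limma (0 of 12), and 1 had an unadjusted p under 0.05. As a measure for this and the following lists, 4280 of all 25788 genes had such a p. With the replicate block 1.73% of all genes fell and 6.62% rose. The replicate block gave 2 genes that fell, 0 that rose and 10 that missed the threshold. The genes that fell were Pcsk1n, which encodes an inhibitor of prohormone convertase 1 (difference −0.49, block adjusted p = 0.0170), and the zinc transporter gene Slc30a8 (−0.45, 0.0122). The Pcsk1n levels were 4.99, 5.23 and 5.28 in control and 4.69, 4.68 and 4.68 in exoNOD cells, without overlap. The groups overlapped for Slc30a8. From the control mean of its slide exoNOD replicate 1 lay at −0.48 for Pcsk1n and at −0.14 for Slc30a8. The median difference of the list was −0.16, against 0.035 over all genes.

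Transcription factors that drive islet hormone genes had a median difference of −0.07. By limma 0 of 17 were called, and 6 had an unadjusted p under 0.05. With the replicate block, with which 1.73% of all genes fell, 4 fell. These were Nkx2-2 (difference −0.42, block adjusted p = 0.0131), Nkx6-1 (−0.42, 0.0145), Pdx1 (−0.37, 0.0427) and Mafa (−0.30, 0.0446), and the other 13 did not pass. The groups overlapped for Pdx1. From the control mean of its slide exoNOD replicate 1 lay at −0.32 for Nkx2-2, −0.27 for Nkx6-1 and −0.19 for Mafa. For Pdx1 it lay at 0.038, in the other direction. Among those 13, Neurog3, which starts endocrine development, was higher on all exoNOD arrays (0.49, block adjusted p = 0.0785), as was Pax4, which was not above background on the control arrays. Neurod1, Isl1 and Insm1 had differences of 0.039, 0.20 and 0.011. These 5 genes were named after their values were seen. Pdx1 and Mafa bind insulin gene promoters.

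Receptors of the member hormones were tested for 17 of 21 genes; Npy2r, Npy5r, Cckar, the main gut receptor of cholecystokinin, and Calcr were not above background on all arrays of either group. By limma 0 were called, with 7 at an unadjusted p under 0.05, and the median difference was −0.02. Over all genes 6.62% rose and 1.73% fell with the replicate block. With the replicate block 3 rose, namely the pancreatic polypeptide receptor Npy4r (0.73, adjusted p = 0.0300), the somatostatin receptor Sstr1 (0.61, 0.0369) and the cholecystokinin and gastrin receptor Cckbr (0.77, 0.0421). Against the control mean of its slide exoNOD replicate 1 lay at 1.01 for Npy4r, 0.29 for Sstr1 and 0.15 for Cckbr. The receptors of glucagon, Gcgr (−0.38, 0.0223), and of glucagon-like peptide 1, Glp1r (−0.45, 0.0323), fell with the block, and 12 did not pass. The groups of Gcgr and Glp1r overlapped, and exoNOD replicate 1 lay at −0.34 and −0.37 from the control mean of its slide.

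Other regulatory peptide genes were tested for 22 of 27 members, of which 18 had a positive difference (median 0.22). By limma 0 were called, with 5 at an unadjusted p under 0.05. Over all genes 6.62% rose and 1.73% fell with the replicate block. With the replicate block the gastrin gene Gast, the closest relative of Cck, rose (0.84, adjusted p = 0.0164), as did the dynorphin precursor gene Pdyn (0.49, 0.0328), the beta cell peptide gene Ucn3 fell (−0.73, 0.00232), and 19 did not pass. Gast had levels of −3.41, −3.32 and −3.37 in control and −2.99, −2.42 and −2.16 in exoNOD cells, and exoNOD replicate 1 was the lowest of its group, as for Cck and Grp.

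Markers of the cells that make the hormones gave the following values. Of 6 beta cell markers limma called 0 (3 at an unadjusted p under 0.05). Over all genes 1.73% fell and 6.62% rose with the replicate block. With the replicate block 5 fell, namely Slc2a2, the glucose transporter gene (−0.83, adjusted p = 0.00080), Ucn3, Slc30a8, Nkx6-1 and Mafa. The groups overlapped for Slc2a2, Ucn3 and Slc30a8. ExoNOD replicate 1 lay at −0.25 for Slc2a2, −0.45 for Ucn3 and −0.14 for Slc30a8 from the control mean of its slide. For Nkx6-1 and Mafa it lay at −0.27 and −0.19. The median difference of the 6 markers was −0.43. Their summed relative signal ran from 55.5 to 89.5 in control and from 46.6 to 73.2 in exoNOD cells, where Ins1 and Ins2 differed by −0.12 and −0.07. Of the alpha cell markers 0 of 6 passed in either fit (median −0.0063), as did 0 of 4 for delta cells (−0.08), 0 of 3 for PP cells (0.36) and 0 of 3 for epsilon cells (−0.06, with Ghrl itself among them). Gut endocrine markers other than the members themselves, Gip, Nts, Sct and Tph1, had differences between −0.05 and 0.49 and did not pass.

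Summed markers of several other cell types differed between the groups without overlap. Of all single genes tested 22.4% had groups without overlap. The summed relative signal of 5 duct markers was 4.53 to 6.73 in control and 7.03 to 9.31 in exoNOD cells (Cftr and Spp1 rose with the block, by 0.82 and 1.56). For 5 endothelial markers it was 6.69 to 7.82 and 8.26 to 8.99, and with the block they went both ways, Plvap rising (0.43, adjusted p = 0.0227) and Cdh5 falling (−0.80, 0.0373). It was 4.72 to 5.41 and 5.42 to 6.16 for 5 Schwann cell and neuron markers and 0.123 to 0.151 and 0.173 to 0.216 for 3 B lymphocyte markers. For 4 macrophage markers it was lower in exoNOD cells, 15.4 to 15.7 against 20.4 to 21.7 (Adgre1 and Itgam fell with the block). In limma without the block 0 of these genes passed. Sums overlapped for 6 acinar (Cpa1 rose with the block), 6 fibroblast and 3 T lymphocyte markers. The acinar gene Cela2a was not above background on any array (0 of 6), and the lymphocyte genes Cd3d and Ms4a1 were above it on 0 control arrays. The B lymphocyte sums of the control arrays thus hold an Ms4a1 signal that was not above background. The part of these cells in the differences of Cck, Grp, Ppy and Pyy was not tested.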

How the data were processed

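Arrays were read with Agilent Feature Extraction 11.0.1.1, per the file headers of the deposited files, from a 20 bit scan. The processed signal is an intensity that the authors' software background-subtracted and detrended within the array, with no normalization between arrays. Deposited flags, which take the other values 0 or 1, mark spots well above background, saturated or outlying. The authors' deposited processed values are on the log2 scale, with a method not given in the sources used here.

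Processed signals were taken as log2 and averaged over the spots of a probe without outlier spots. The 75th percentile of the array's transcript spots was subtracted. A probe was kept if well above background on each array of 1 group or both (31063 of 39429). Symbols came from RefSeq accessions (27234 probes), and each gene was read from its probe of highest mean. Groups were compared with limma 3.58.1 (eBayes with a trend) in R 4.3.3 over 25788 genes at a Benjamini-Hochberg adjusted p of 0.05; the code was tested on simulated data.

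The labels give both groups replicate numbers 1 to 3. Deviations from the group means correlated across genes at 0.362, 0.278 and 0.471 between arrays of equal number, all above 0.1, and between −0.338 and 0.0087 otherwise. Equal numbers were therefore taken as pairs, although the labels do not state this, and a fit with the replicate number as a block is given where it changed a call. Members and lists were chosen with earlier results of these data known. Named genes are the 10 members, the genes of the lists and of the marker lists past the threshold in either fit, list genes not above background, all gut endocrine markers, and the 3 genes most like each member that was above background everywhere and whose groups did not overlap; 1 of these is not reported here. The normexp correction used the median spot signal and was added after the data were seen, as was the fit with outlier spots kept. The labels' separate preparations are taken as replicates; probe positions were not used here.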

Additional observations from a re-analysis of the deposited data

How the results depend on the processing

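The number of members that passed was 0 in the main fit. It was 3 with the replicate block and 4 with the block after quantile normalization or in the authors' values. With normexp correction it was 1, as with array weights. With single arrays left out it was between 0 and 2, and with the block and single pairs left out between 1 and 3. Every count of 2 or more included Grp, which entered the fit through the exoNOD arrays alone. Of the genes in the 4 lists around the hormones 0 passed. The count was 14 with the block, 8 with it after quantile normalization or in the authors' values, 1 with normexp, between 0 and 3 without single arrays and between 2 and 20 without single pairs. Over all genes the count was 27, 2153 with the block, 1193 with it after quantile normalization, 1228 with it in the authors' values, 157 with normexp, 13 after median scaling, 0 without a filter on dim probes (4625 at an unadjusted p under 0.05), 2 with slide as a block, 2 on slide 1 alone and 293 with array weights. Without control replicates 1, 2 and 3 it was 0 (2547 at an unadjusted p under 0.05), 0 (2412) and 73, and without exoNOD replicates 1, 2 and 3 it was 1265, 0 (3043) and 2. Without pairs 1, 2 and 3 in the block fit it was 4170, 429 and 1731. After quantile normalization 18 rose and 13 fell, against 26 and 1.

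Cck and Grp stayed positive and Ins1, Sst, Ppy and Pyy negative in every setting run. With the 4 quantile and authors' settings Ins2 and Gcg turned to 0.025. Iapp turned to 0.017 with slide as a block and on slide 1, to 0.013 with the block without pair 3, and ran from −0.057 to 0.015 without single arrays, where it was 0.00076, 0.015 and 0.0032 without control replicates 1 and 3 and exoNOD replicate 2. Ghrl turned to 0.0019 with array weights and to 0.022 without control replicate 3. In these cases the cause was not tested, and no value that turned passed. Normexp moved the median of all genes by 0.32 and median scaling by −0.14. Under normexp Ins1 had −0.38, Ins2 −0.30, Iapp −0.22, Gcg −0.32, Sst −0.44, Ppy −0.59, Pyy −0.61, Ghrl −0.18, Cck 1.32 and Grp 1.21. After median scaling Ins1 had −0.26, Ins2 −0.21, Iapp −0.15, Gcg −0.24, Sst −0.35, Ppy −0.50, Pyy −0.54, Ghrl −0.20, Cck 1.40 and Grp 2.48. Each member has 1 probe, so the settings on probes per gene could not change its value. Keeping outlier spots changed no call of a member. The filter on all 6 arrays gives no value for Grp, and normexp on the mean spot signal, planned at first, was not run, as the array files used here give median spot signals. Block fits without a pair have 1 residual degree of freedom, and the small number of arrays limits all of these counts.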
